A study of Arabidopsis thaliana with 12 samples.

Results

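The comparison described here set dark-grown seedlings of the sfps-2 mutant of Arabidopsis thaliana against dark-grown wild type. It rests on 6 of the 12 libraries of the study, chosen by their labels. Of these, 3 are from Col-0, the wild type, and 3 are from sfps-2, in which the gene SFPS (AT1G30480) is knocked out in Col-0. All 6 came from whole seedlings that were 4 days old, had been raised in darkness and were held there for a further 3 h, while the other 6 libraries had red light in those hours. Of the 33557 genes in the authors' expression table for these groups, 20698 were tested by the authors, and their splicing sheet lists 972 events in 787 genes. Separate cultures are not stated for the 3 replicates of a group, so that p-values measure only the spread between these libraries, which may be technical. RNA was total RNA depleted of ribosomal RNA, sequenced in stranded libraries.

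SFPS is a nuclear RNA-binding protein with a G-patch domain that works with the red light receptor phytochrome B and acts on pre-mRNA splicing. Splicing removes introns at a 5' donor and a 3' acceptor site, and a change in a splicing factor can leave introns in the mRNA, shift the site that is used or alter whether an exon is included. Seedlings in darkness grow on seed reserves with a long hypocotyl and closed cotyledons, and the genes of defence, nutrient uptake and surface lipid synthesis described below are expressed there at levels that differ widely from gene to gene.

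SFPS itself was checked first. SFPS went from 8.04 to 1.83 FPKM, a log2 change of -2.14. At 1 listed intron it had 118, 112 and 117 scaled junction reads in the wild type libraries and 2.02, 5.78 and 0 in the sfps-2 libraries. The groups do not overlap. In sfps-2 no junction read had this intron spliced out, and these reads do not measure the rest of the transcript. The 6 libraries held between 464429 and 604399 reads over the junctions of the listed splicing events, the only per-library reads in the files. Junction reads of a gene are summed over its listed events alone. A change in splicing and a change in level can therefore not be told apart in them. Replicate 2 of sfps-2 stood apart from the other sfps-2 libraries in a subset of genes. Among 52 genes called higher whose junction reads are listed, it lay under 0.5 of the lower of the other sfps-2 libraries in 8 and over 2 times the higher in 5. The expression values below are group values that include it and cannot be recomputed without it, so junction reads are given beside the FPKM for the genes named below that have them and in which that library stands apart.

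**Figure D1:**
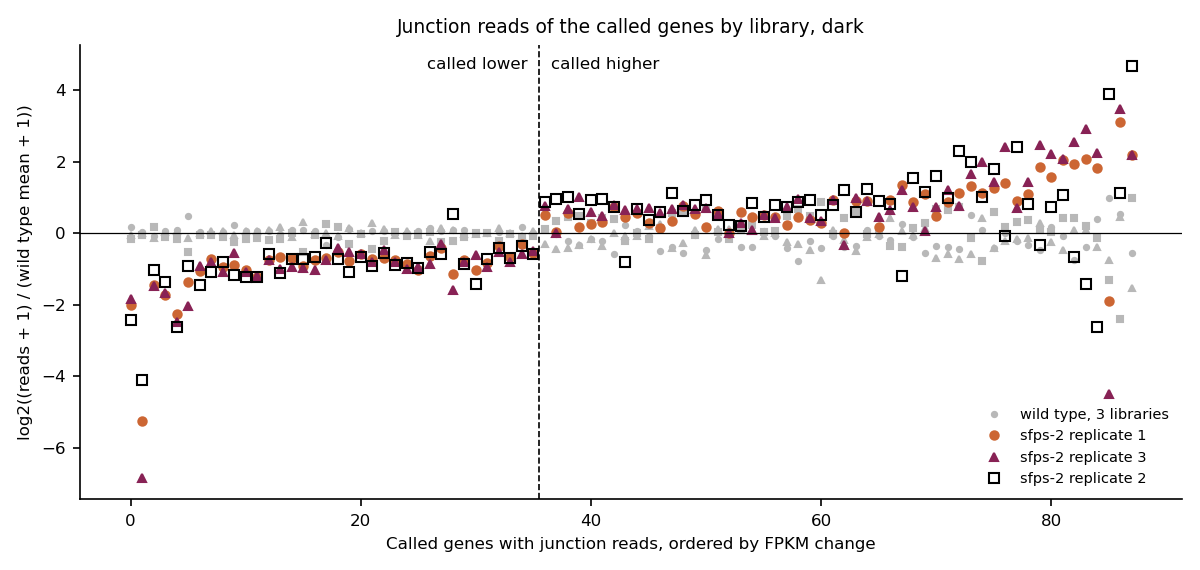
Junction reads of the 88 called genes that have them, as log2 of reads plus 1 over the wild type mean plus 1, for each of the 6 libraries, with sfps-2 replicate 2 as open squares. Of the 52 genes called higher, 27 had all sfps-2 libraries above all wild type libraries, and of the 36 called lower, 34 had them all below.

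Expression was compared as FPKM, fragments scaled to transcript length and library size, which the authors computed once per group from its 3 libraries and which therefore carry no SD. A gene was counted as risen or fallen when the q-value in the authors' deposited table was under 0.05 and the FPKM differed at least 1.5-fold. By this rule 5.22% of the tested genes rose in sfps-2 (1080 genes), 1.99% fell (411 genes) and 7.2% were called either way, and the median log2 change of all tested genes was 0.04. Classed by wild type level alone, rises took a larger share of weakly expressed genes and falls a larger share of strongly expressed ones. This pattern follows in part from the classing, since a gene low in wild type has little room to be called lower. Of genes under 1 FPKM in wild type, 325 of 2435 rose and 20 fell, while of the 103 genes in the highest class of wild type level 0 rose and 11 fell. At 1 to 10 FPKM in wild type 6.73% rose and 1.88% fell, and at 10 to 100 FPKM 2.46% rose and 2.02% fell. Counts below of family members at 1 FPKM or more are to be read beside these shares. In whole seedlings fewer cells of a type and less RNA per cell cannot be told apart. Near-identical genes in tandem, such as many in the families below, can share reads, and how the authors' counting treated such reads is not given in the sources used here.

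Genes of tryptophan synthesis rose, with 4 of 10 not called. This plastid pathway makes the amino acid from which auxin, camalexin and indole glucosinolates derive, and 6 of its tested genes rose and 0 fell, with a median log2 change of 1.65. TSA1, the alpha subunit of tryptophan synthase, went from 13 to 108 FPKM, a log2 change of 3.05. ASA1, the anthranilate synthase subunit that commits chorismate to the pathway, went from 9.59 to 57.4 FPKM (2.58), and its partner subunit ASB1 from 8.47 to 35.4 FPKM (2.06). TRP1, the anthranilate phosphoribosyltransferase, rose by 2.14, and the beta subunits TSB2 and TSB1 by 1.89 and 1.40. The summed level of the 10 genes was 84.3 FPKM in Col-0 against 335 FPKM in the mutant. Sulfate assimilation, which supplies the sulfur of these indole compounds, had 3 of 32 genes higher and 0 lower. Among them were the reductase gene APR1, from 1.66 to 6.16 FPKM (1.89), and the ATP sulfurylase gene APS1, from 48.7 to 81.9 FPKM (0.75).

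Oxidative enzymes of specialized metabolism rose in part. Berberine bridge enzyme-like proteins are secreted flavin oxidases, of which some oxidise oligosaccharides of the cell wall, and 6 of 18 rose with 0 lower. Their neighbours on chromosome 1, AT1G26390 and AT1G26410, went from 0.133 to 10.7 FPKM (6.33) and from 0.597 to 13.9 FPKM (4.54), and AT1G30700 went from 32.7 to 79.0 FPKM (1.27). Cytochrome P450 monooxygenases had 30 of 154 higher and 12 lower. Besides the better known enzymes of camalexin and indole glucosinolate synthesis, the rises included CYP82C2 of the indole cyanogenic pathway (from 0.0388 to 0.707 FPKM, 4.19), CYP78A8 (0.383 to 3.53 FPKM, 3.2) and CYP71B6 (42.9 to 101.4 FPKM, 1.24). The falls were led by CYP705A9 (20.7 to 8.74 FPKM, -1.24) and CYP705A5 (118 to 54.1 FPKM, -1.12). CYP705A5 and CYP708A2 (27.02 to 14.1 FPKM, -0.94) belong to the thalianol gene cluster, which makes triterpenes of the root. In the list of triterpene clusters and sterol oxidation, 1 of 17 rose and 2 fell. UDP-glycosyltransferases, which attach sugars to hormones and other small molecules, had 14 of 55 higher and 2 lower. Among them UGT74B1 of glucosinolate synthesis went from 18.2 to 41.6 FPKM (1.19), DOGT1 of brassinosteroid inactivation from 4.23 to 9.74 FPKM (1.2), and UGT74F2, a salicylate glucosyltransferase, from 49.5 to 84.9 FPKM (0.78).

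Receptor-like kinases of the cell surface rose in several families. These proteins bind ligands outside the cell and start signalling cascades in immunity and wall sensing. Cysteine-rich receptor kinases had 12 of 26 genes higher and 1 lower, a median log2 change of 0.71. CRK25 went from 10.4 to 26.96 FPKM (1.38) and CRK11 from 8.20 to 19.4 FPKM (1.24), while CRK20 went from 0.0379 to 0.695 FPKM (4.20). CRK27 went the other way, from 4.55 to 1.69 FPKM (-1.42). Kinases with a lectin or malectin domain had 16 of 66 higher and 0 lower, with AT5G65600 from 0.437 to 4.68 FPKM (3.42) and AT1G61360 from 9.49 to 14.7 FPKM (0.63). Wall-associated kinases, which bind pectin, had 3 of 11 higher, all from under 1 FPKM, with WAKL10 from 0.145 to 2.74 FPKM (4.24). FRK1, a kinase gene widely used as a marker of flagellin responses, went from 0.433 to 2.94 FPKM (2.76), and LYK4, a co-receptor for chitin, from 9.92 to 16.1 FPKM (0.70). Intracellular immune receptors of the TIR and NBS-LRR classes had 17 of 117 higher and 5 lower, and 9 of 91 higher at 1 FPKM or more in each genotype, with AT5G41750 from 2.51 to 12.4 FPKM (2.30) and SNC1 from 3.88 to 5.998 FPKM (0.63). Of members expressed at 1 FPKM or more in each genotype, 6 of 14 cysteine-rich kinases, 9 of 44 lectin kinases and 0 of 8 wall-associated kinases rose.

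Junction reads were listed for few of these genes, and they differ between the sfps-2 libraries. AT1G11300, a G-type lectin receptor kinase gene, had 70.1, 103 and 120 scaled reads in wild type and 360, 77.1 and 546 in sfps-2 (edgeR quasi-likelihood adjusted p 0.0808, 0.0463 with the replicate block, and 0.00116 without sfps-2 replicate 2). AT1G51890, a leucine-rich repeat receptor kinase gene, had 27.5, 62.8 and 49.7 reads in wild type and 182, 28.9 and 282 in sfps-2 (edgeR adjusted p 0.108, and 0.00259 without that library). For both genes replicates 1 and 3 of sfps-2 were above all wild type libraries and replicate 2 was among them.

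Genes of danger signals and some of calcium handling rose too. PROPEP3, the precursor of a peptide that wounded cells release to alert their neighbours, went from 2.99 to 43.8 FPKM (3.87), PROPEP2 from 0.456 to 4.51 FPKM (3.30) and PROPEP1 from 5.36 to 10.06 FPKM (0.91). They were the only 3 of 52 tested signalling peptide genes called, all higher. Calcium channels and pumps had 12 of 49 genes higher and 0 lower, and 7 of 38 higher at 1 FPKM or more in each genotype. Of the 12 that rose, 7 were glutamate receptor-like channels, ligand-gated channels that pass calcium during wounding. Of these channels, only GLR2.5, from 1.51 to 5.13 FPKM (1.76), and GLR1.3, from 3.94 to 6.88 FPKM (0.81), were at 1 FPKM or more in each genotype. The cyclic nucleotide-gated channel gene CNGC10 went from 3.15 to 8.36 FPKM (1.41), and the calcium pump gene AT3G63380 from 7.36 to 20.5 FPKM (1.48). The list of EF-hand proteins had 8 of 58 higher and 0 lower, with AT5G39670 from 5.25 to 25.6 FPKM (2.28). The separate list of calmodulin-like proteins had 3 of 13 higher and 1 lower. Among them TCH3, a touch-induced gene, went from 82.7 to 126 FPKM (0.61), while CAM8 fell from 8.21 to 4.501 FPKM (-0.87). Calcium-dependent kinases had 1 of 24 higher (CPK27, 0.80) and 1 lower (CPK2, -0.62). Kinases of the MAP kinase cascade had 1 of 48 higher, MPK11 from 0.426 to 2.88 FPKM (2.76).

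ATGLR1.2 and RBOHA again showed a low replicate 2 in their junction reads. ATGLR1.2, a glutamate receptor-like channel gene, had 6.67, 0 and 6.21 scaled reads in wild type and 44.5, 10.6 and 58.6 in sfps-2 (edgeR adjusted p 0.0422, and 0.0532 to 0.116 when any 1 library other than sfps-2 replicate 2 is left out). RBOHA, an NADPH oxidase gene that makes extracellular superoxide, had 15.02, 10.14 and 8.28 reads in wild type and 42.5, 0.964 and 56.2 in sfps-2 (edgeR adjusted p 0.269, and 0.00779 without replicate 2). Its FPKM went from 0.639 to 2.87 (2.17), the only call among 5 oxidase genes. RBOHD, the main immune oxidase, had 7.997 FPKM in Col-0 and 11.2 FPKM in sfps-2, with q 0.0207 in the authors' deposited table. RBOHF went from 20.9 to 29.7 FPKM with q 0.00304 there. Both were under the 1.5-fold limit and not called, and by q alone 3 of the 5 were higher.

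Secreted and cytosolic defence proteins were higher in smaller numbers. Of pathogenesis-related proteins, chitinases, glucanases and defensins, 5 of 19 rose and 0 fell. The defensin gene LCR67 went from 13.4 to 163 FPKM (3.60), and the chitinase genes HCHIB and EP3 from 65.0 to 110 FPKM (0.75) and from 5.50 to 10.9 FPKM (0.98). PDF2.1, a second defensin gene, had 9.18, 28.4 and 4.14 junction reads in wild type and 66.8, 382 and 66.8 in sfps-2 (edgeR adjusted p 0.0278, and 0.108 or 0.102 without wild type replicate 1 or 3). Here all sfps-2 libraries were above wild type and replicate 2 was the highest. Germin-like proteins, oxidases bound to the wall, had 3 of 10 higher, with GLP9 from 3.08 to 46.2 FPKM (3.91), GLP4 from 3.01 to 43.2 FPKM (3.84) and GER3 from 200 to 356 FPKM (0.83). Genes of salicylate and pipecolate immunity had 4 of 29 higher, among them FMO1, which hydroxylates pipecolate, from 0.827 to 8.88 FPKM (3.42), and the calmodulin-binding regulator CBP60G from 6.04 to 32.3 FPKM (2.42). The jasmonate list had 4 of 30 higher and 0 lower, with the lipoxygenase LOX1 from 14.3 to 39.7 FPKM (1.48). MLO membrane proteins had 3 of 12 higher. MLO7 had 58.4, 51.7 and 90.1 junction reads in wild type and 128, 118 and 105 in sfps-2 (edgeR adjusted p 0.0499, and 0.0731 to 0.161 when any 1 library other than wild type replicate 3 is left out). These groups do not overlap.

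Detoxification and export genes rose as well. Tau-class glutathione transferases, which conjugate glutathione to foreign or reactive compounds, had 6 of 25 genes higher and 2 lower. GSTU12 went from 1.28 to 25.3 FPKM (4.31), GSTU10 from 4.21 to 22.9 FPKM (2.45) and GSTU8 from 29.2 to 73.5 FPKM (1.33), while GSTU26 went from 123.1 to 75.8 FPKM (-0.70). ABC transporters had 15 of 92 higher and 1 lower, and 6 of 79 higher among those at 1 FPKM or more in each genotype. Among them, ABCG6, ABCG16 and ABCG20, transporters that act in suberin and pollen wall formation, went from 0.625 to 3.47 FPKM (2.47), from 0.359 to 1.97 FPKM (2.46) and from 0.149 to 0.559 FPKM (1.91). ABCC8 went from 9.24 to 22.0 FPKM (1.25). MATE exporters had 6 of 45 higher and 2 lower, with DTX1 from 1.47 to 5.87 FPKM (2.0). The HXXXD acyltransferase gene AT5G42830 went from 2.02 to 30.04 FPKM (3.89), 1 of 3 of 37 such genes that rose.

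**Figure D2:**
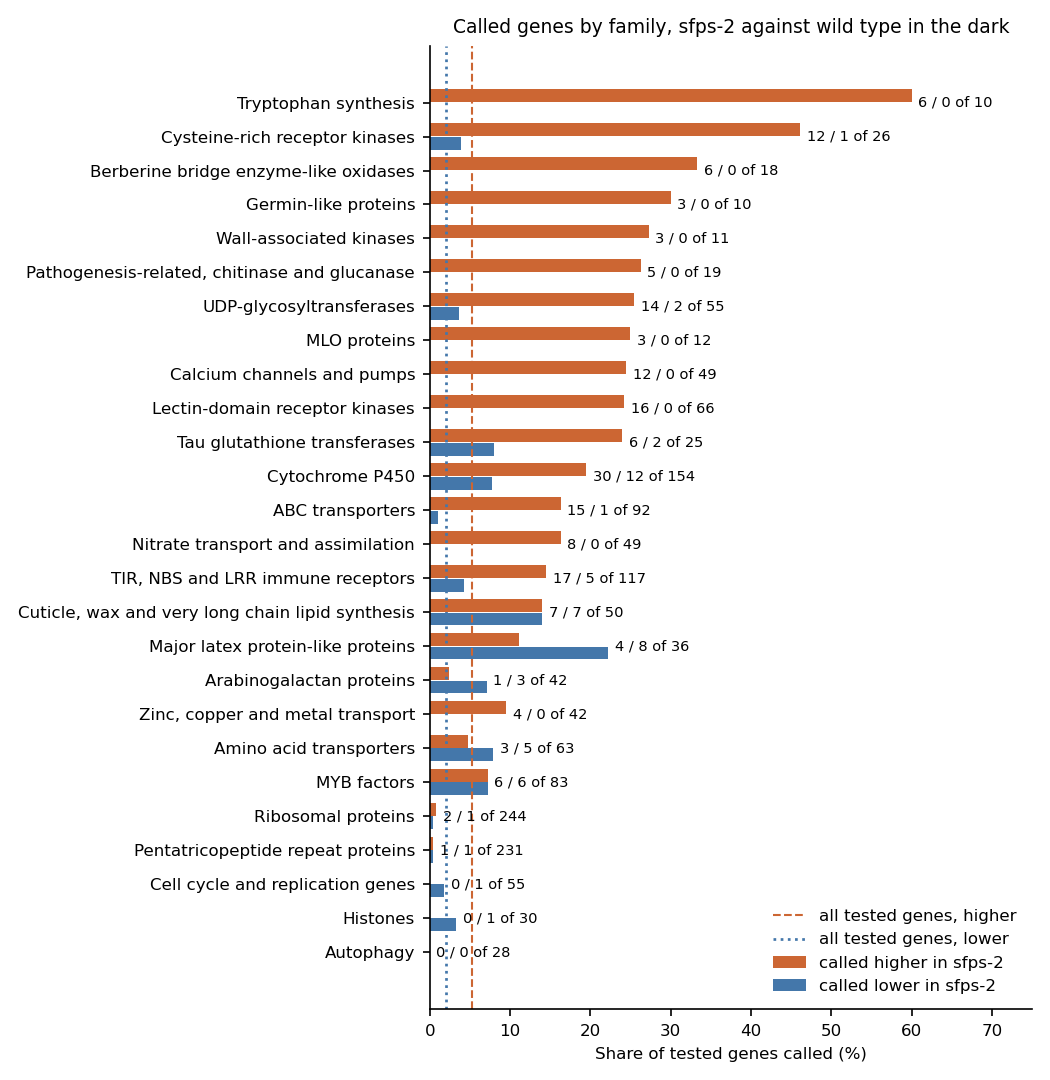
Share of the tested genes of 26 gene families called higher (orange) or lower (blue) in sfps-2 in the dark, in percent, with the numbers higher, lower and tested beside each bar. The dashed and dotted lines mark all tested genes, 5.22% higher and 1.99% lower. Tryptophan synthesis stands farthest to the right with 6 of 10 genes, and the major latex protein-like family is the one with the largest share of falls shown, 8 of 36 genes.

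Surface lipid genes split in direction. Cutin and wax cover the shoot epidermis and suberin seals root endodermis and wounds. Of 50 tested genes in the combined list, 7 rose and 7 fell. The genes that fell included strongly expressed genes of wax and cutin, and their wild type levels ranged widely. KCS6, the elongase of wax precursors, went from 524 to 332 FPKM (-0.66), KCS1 from 400 to 252 FPKM (-0.67), the cutin hydroxylase gene CYP86A2 from 359 to 218 FPKM (-0.72), and KCS12 from 131 to 61.2 FPKM (-1.10). At lower levels, the wax ester synthase gene WSD1 went from 16.1 to 8.64 FPKM (-0.89) and CYP86A4 from 12.6 to 7.85 FPKM (-0.69). Several of the 7 that rose were expressed weakly and are known for suberin or its precursors. GPAT5, an acyltransferase of suberin, went from 0.280 to 1.37 FPKM (2.29), the suberin hydroxylase gene CYP86A1 from 0.571 to 1.54 FPKM (1.43), and the fatty alcohol genes FAR5 and FAR4 from 0.208 to 1.19 FPKM (2.51) and from 0.987 to 2.18 FPKM (1.14). The rest of the 7 were GPAT6, from 0.0838 to 0.404 FPKM, GPAT7, from 0.117 to 1.13 FPKM, and LACS3, from 3.64 to 11.7 FPKM. LACS3 was the 1 of the 7 at 1 FPKM or more in each genotype. Genes of other families with a known link to suberising tissue are set beside the suberin genes, a grouping made after their values were seen. MYB39, MYB9 and MYB93, transcription factors expressed in suberising or endodermal cells, went from 0.170 to 0.649 FPKM (1.93), from 0.251 to 0.990 FPKM (1.98) and from 0.346 to 1.03 FPKM (1.57). MYB92, a close relative of MYB93 that is also linked to suberin, fell from a higher level, 12.8 to 7.51 FPKM (-0.76). The GDSL lipase genes AT1G74460 and AT2G23540 went from 0.719 to 3.62 FPKM (2.33) and from 0.722 to 2.51 FPKM (1.80), 2 of 8 of 58 such genes that rose with 1 lower. Among the 41 surface lipid genes at 1 FPKM or more in each genotype, 1 rose and 7 fell. None of 9 endodermis markers was called, with a summed level of 1096 FPKM in Col-0 against 922 FPKM in the mutant, and the part of cell numbers in these changes was not tested.

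The major latex protein-like family had the largest share of falls among the lists with over 20 tested genes. These small proteins bind hydrophobic ligands. Of 36 tested, 4 rose and 8 fell. AT4G23670 had the highest level of all called genes, from 3538 to 2089 FPKM (-0.76). MLP28 went from 924 to 535 FPKM (-0.79), MLP34 from 443 to 233 FPKM (-0.93) and MLP43 from 173 to 81.4 FPKM (-1.09). These 3 genes lie close together on chromosome 1 with MLP31, which went from 0.185 to 2.69 FPKM (3.86). The 10 called genes with the highest level in wild type all fell, though ranking by wild type level favours falls. Besides AT4G23670 they include the tonoplast aquaporin TIP2;2 (1491 to 835 FPKM, -0.84), the arabinogalactan protein AGP22 (1279 to 594 FPKM, -1.11), the gibberellin-regulated GASA1 (1588 to 996 FPKM, -0.67) and the galactosidase BGAL4 (1661 to 1066 FPKM, -0.64). Of the 10 called genes with the highest level in sfps-2, GSTF7, RBCS1A and MT3 rose and the rest fell. Arabinogalactan proteins, glycoproteins of the cell surface, had 1 of 42 higher and 3 lower, with AGP13 from 177 to 81.0 FPKM (-1.13) and FLA13 from 48.7 to 19.5 FPKM (-1.32). LTP3, a lipid transfer protein, went from 75.4 to 22.1 FPKM (-1.77).

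Noncoding RNAs were described by their RefSeq class, against 5.22% higher and 1.99% lower over all tested genes. Of 124 tested genes of the ncRNA class, 1 rose and 10 fell. Of 171 lncRNA genes 1 rose and 3 fell, a share of falls near that of all genes. Among structural RNAs, 1 of 31 tested small nucleolar RNA genes fell and 0 rose. It was SNOR111, from 2454 to 1328 FPKM (-0.89). Of 12 tested small nuclear RNA genes 1 fell and 0 rose, U12 (AT1G61275) of the minor spliceosome, from 1094 to 642 FPKM (-0.77).

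Nutrient uptake and assimilation rose in part. Nitrate transport and assimilation had 8 of 49 genes higher and 0 lower. NIA2 and NIA1, the nitrate reductases, went from 77.7 to 160 FPKM (1.04) and from 87.0 to 158 FPKM (0.86). GSR2, a cytosolic glutamine synthetase, went from 43.6 to 85.6 FPKM (0.97), GLU1, the ferredoxin-dependent glutamate synthase, from 29.4 to 64.3 FPKM (1.13), and the ammonium transporter gene AMT1;2 from 0.277 to 1.195 FPKM (2.11). The metal list had 4 of 42 higher and 0 lower, with the plasma membrane zinc exporter PCR2 from 93.2 to 290 FPKM (1.64), the zinc importer ZIP3 from 3.93 to 11.01 FPKM (1.49) and the metallothionein MT3 from 622 to 956 FPKM (0.62). IRT1, the iron importer of the root epidermis, lies outside that list and was called higher, from 3.67 to 19.3 FPKM (2.39). Its junction reads were 44.2, 8.11 and 12.4 in wild type and 5.06, 333 and 0 in sfps-2 (edgeR adjusted p 0.31). Replicate 2 of sfps-2 alone was high, and the other sfps-2 libraries lay below all wild type libraries. Phosphate starvation genes had 5 of 46 higher and 3 lower. Amino acid transporters had 3 of 63 higher and 5 lower, with LHT1 from 30.5 to 53.5 FPKM (0.81) and UMAMIT4 from 31.3 to 17.6 FPKM (-0.83).

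Hormone lists other than auxin and jasmonate gave counts near the background. Ethylene had 1 of 26 higher and 1 lower, and these were both ACC synthases, the rate-limiting enzymes of ethylene synthesis: ACS2 went from 2.62 to 4.23 FPKM (0.69) and ACS11 from 10.07 to 4.18 FPKM (-1.27). Abscisic acid had 2 of 45 higher and 2 lower, and cytokinin 1 of 42 higher and 2 lower. The transcription factor families named here held calls in both directions. MYB factors had 6 of 83 higher and 6 lower, the falls being 7.23% against 1.99% of all tested genes. MYB15 went from 2.0 to 12.7 FPKM (2.67) and MYB102 from 3.84 to 1.68 FPKM (-1.19). NAC factors had 5 of 78 higher and 1 lower, with NAC042 from 1.97 to 27.1 FPKM (3.79), and ERF and DREB factors 4 of 54 higher and 1 lower. The 1 lower was EBP, an ethylene response factor of group VII, which went from 641 to 215 FPKM (-1.58). Hypoxia response genes, some of which are targets of that group, had 0 of 13 higher and 2 lower. The 2 were the hemoglobin HB1 from 12.7 to 5.59 FPKM (-1.18) and the sucrose synthase SUS4 from 1.91 to 1.096 FPKM (-0.80). The median log2 change of the 13 was positive, 0.17, and a link to the fall of EBP was not tested.

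FLC, the MADS-box repressor of flowering, fell, and introns took a larger share of the junction reads that remained. Retention below is this share and not a number of reads. FLC went from 59.9 to 20.3 FPKM (-1.56). Its junction reads were 3363, 3006 and 3269 in wild type and 965, 1250 and 1013 in sfps-2, a log2 change of -1.58 (edgeR adjusted p 2.48e-04). The groups do not overlap, and the adjusted p stayed between 1.27e-04 and 0.00273 with any 1 library left out. Over all 910 genes whose junction totals could be tested, 6.15% were higher and 10.7% lower by this test. The first 4 introns of FLC, counted from the transcript start, are all in the authors' list of events. Their splice sites, with 3 exon bases and 8 intron bases at the 5' site and with the intron's first GT in capitals, are shown because retention rose at each of them (TAIR10.1, sequence from RefSeq):
FLC intron 1, chr5:3179147-3179157, minus strand: taaGTacgcct
FLC intron 2, chr5:3175596-3175606, minus strand: ttgGTaataca
FLC intron 3, chr5:3175356-3175366, minus strand: tagGTtagtac
FLC intron 4, chr5:3175166-3175176, minus strand: aagGTaagttg
All 4 begin with GT, and intron 4 is the 1 of them that continues as GTAAG. The first intron, of 3493 bases, was retained in 1.38%, 4.67% and 3.81% of junction reads in wild type and in 8.53%, 5.06% and 8.92% in sfps-2 (limma adjusted p 0.0343, and 0.0594, 0.0891 and 0.0902 without wild type replicate 1, sfps-2 replicate 1 and sfps-2 replicate 3). The second was retained in 2.33%, 5.06% and 4.57% in wild type and in 18.2%, 8.22% and 16.3% in sfps-2 (limma adjusted p 0.00753). The groups do not overlap for either, and replicate 2 is the lowest sfps-2 library in both. Unscaled reads that retain the first intron were 11, 29 and 25 in wild type and 18, 16 and 14.5 in sfps-2. Reads with it spliced out were 789, 592 and 632 against 193, 300 and 148. For the second intron they were 14, 22 and 19 against 28, 18 and 21 retained, and 588, 413 and 397 against 126, 201 and 108 spliced. The shares thus rose mainly as spliced reads fell. These events were listed by the authors on the same libraries, so the limma p-values for events are not independent of the listing. FLC overlaps AT5G01675 on the opposite strand, and since the use of strand in the counting is not given in the sources used here, reads of both cannot be told apart.

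The relatives of FLC were not called. Of the 6 tested members of the FLC and MAF list, FLC alone was called. MAF1, also a flowering repressor, had 65.9 FPKM in Col-0 and 48.7 FPKM in sfps-2, with q 0.102 in the authors' deposited table. Its junction reads were 1842, 2046 and 1867 in wild type and 1457, 1475 and 1507 in sfps-2, which do not overlap (log2 change -0.37, edgeR adjusted p 0.0194). That call was lost, at 0.0565 to 0.0696, without wild type replicate 3, sfps-2 replicate 1 or sfps-2 replicate 3. MAF2 had 381, 391 and 509 junction reads in wild type and 322, 283 and 335 in sfps-2 (-0.45, edgeR adjusted p 0.0605, and 0.0209 with the replicate block). In MAF1 a 100-base intron was retained in 34.1%, 34.6% and 40.03% of junction reads in wild type and in 50.5%, 49.0% and 53.9% in sfps-2 (limma adjusted p 0.00721). An 86-base intron of MAF2 was listed in the other direction, with 36.98%, 48.2% and 39.8% in wild type and 34.2%, 32.7% and 25.04% in sfps-2 (limma adjusted p 0.0431). That call was lost, at 0.0654 to 0.123, without replicate 2 or 3 of either genotype. Over FLC, MAF1 and MAF2, 8 of 9 listed events were higher in sfps-2, against 63.0% of all listed events. Events of the same gene are not separate observations. Regulators of FLC were not called: 0 of 8 genes of the autonomous pathway and 0 of 23 vernalization and chromatin genes. FLK, of the autonomous pathway, went from 23.9 to 32.5 FPKM with q 0.026 in the authors' deposited table, which is under the 1.5-fold limit. Some of the regulators were spliced differently. FPA, an RNA-binding protein that lowers FLC, had a bin over overlapping introns at 19.7%, 18.6% and 17.1% in wild type and 27.6%, 30.2% and 30.3% in sfps-2 (limma adjusted p 0.00567). FCA, which acts in the same pathway, had an intron at 23.8%, 25% and 34.6% in wild type and 14.6%, 19.5% and 17.2% in sfps-2 (limma adjusted p 0.0197). The floral organ gene PI rose from 2.34 to 8.44 FPKM (1.85). Its junction reads were 27.5, 39.5 and 20.7 in wild type and 123, 62.6 and 126 in sfps-2 (edgeR adjusted p 0.0121, and 0.0538 without wild type replicate 1).

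**Figure D3:**
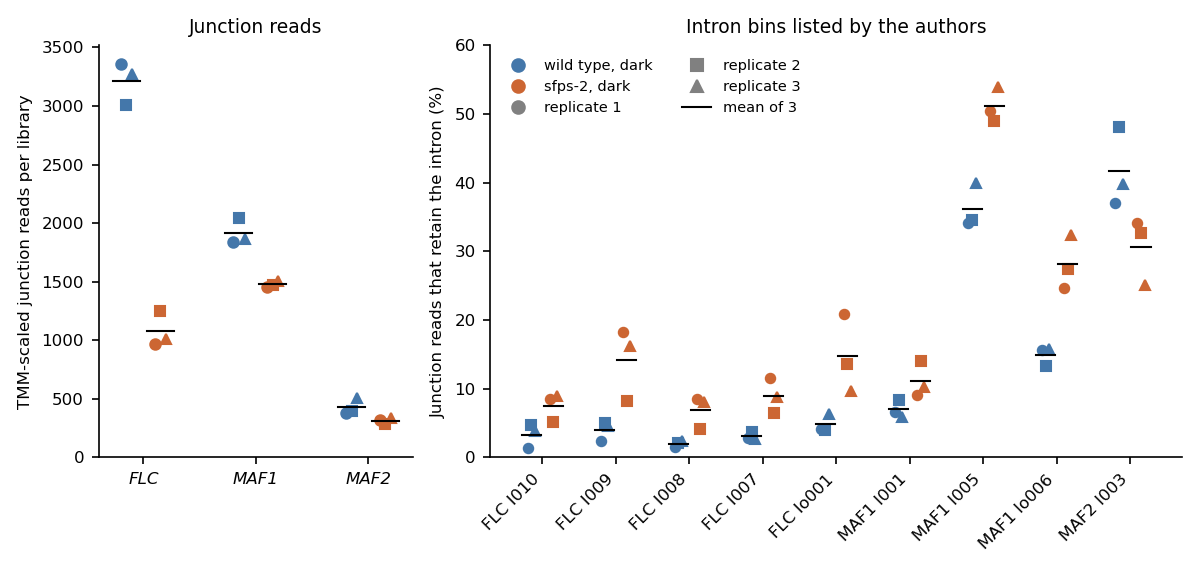
Scaled junction reads of FLC, MAF1 and MAF2 in each library, and the retention share of 9 of their intron bins in percent of junction reads, with 1 point per library, its shape giving the replicate number, and black bars at the group means. FLC falls from 3006 or more in wild type to 1250 or fewer in sfps-2.

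Several ubiquitin and SUMO enzymes had both a change in level and a larger retained share at listed introns. PUB4, a U-box ubiquitin ligase, fell from 23.3 to 12.6 FPKM (-0.88). Its junction reads were 726, 642 and 724 in wild type and 296, 297 and 305 in sfps-2 (-1.22, edgeR adjusted p 2.48e-04). A 237-base intron of PUB4 was retained in 11.3%, 19.1% and 15.4% in wild type and in 43.8%, 38.9% and 37.1% in sfps-2 (limma adjusted p 0.00187). Neither measure overlaps between the groups, and the gene's 3 listed introns all had a larger retained share. Unscaled reads that retain the intron above were 32.5, 37.5 and 32 in wild type and 39, 37 and 29.5 in sfps-2. Reads with it spliced out were 254, 159 and 176 against 50, 58 and 50. ESD4, a SUMO protease of the nuclear envelope whose loss gives early flowering, fell from 28.8 to 17.8 FPKM (-0.70), with junction reads of 789, 798 and 749 in wild type and 460, 419 and 443 in sfps-2 (edgeR adjusted p 7.34e-04). An intron of ESD4 was retained in 8.33%, 13.2% and 10.5% in wild type and in 21.6%, 28.8% and 20.8% in sfps-2 (limma adjusted p 0.00491). Here too the unscaled retaining reads did not rise, with 28, 34 and 25 in wild type and 19, 29.5 and 11 in sfps-2. OTS2, a second SUMO protease, rose by FPKM, from 17.5 to 28.6 (0.71), while its junction reads were 125.1, 108.5 and 132.5 in wild type and 123, 145 and 123 in sfps-2 (0.10, edgeR adjusted p 0.692). Its 354-base intron was retained in 57.4%, 58.3% and 45.5% in wild type and in 75.4%, 73.6% and 74.5% in sfps-2 (limma adjusted p 0.00427). Of the 5 SUMO protease genes tested, ESD4 and OTS2 were the only calls.

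Housekeeping families held few calls, against 5.22% higher and 1.99% lower over all tested genes. Ribosomal proteins had 2 of 244 higher and 1 lower, pentatricopeptide repeat proteins 1 of 231 higher and 1 lower, and tubulins and actins 0 of 23 either way. Factors of the late spliceosome, DEAD-box helicases, and polyadenylation and exosome genes had 0 called of 21, 16 and 26. RBP45A, an RNA-binding protein, was the only fall among 28 genes of small ribonucleoproteins, with junction reads of 315, 296 and 324 in wild type and 172, 173 and 155 in sfps-2 (edgeR adjusted p 7.89e-04). Tissue marker lists were short, so their few calls say little beside these shares. Xylem, phloem and endodermis markers had 0 called of 28, 8 and 9. Stomatal lineage markers had 1 of 10 higher and root hair markers 1 of 29.

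The splicing sheet holds events that the authors listed for a change of 3 points or more in the share of junction reads. Of 972 events, 612 (63.0%) were higher in sfps-2, which for introns means more retention, and 360 were lower. Over all events, 85.5% had groups that do not overlap, 53.4% higher and 32.1% lower, and limma called 52.7% higher and 30.4% lower of the 947 events it could be fitted to. The direction differed by kind. Annotated introns were more retained in 64.3% of 743 cases and less in 265, and cassette exons more included in 12 of 16. Introns that lie inside an annotated exon went the other way, with 18 of 54 higher and 36 lower, and so did alternative 5' sites, with 2 of 13 higher and 11 lower. Alternative 3' sites were higher in 21 of 27. The annotated introns that were more retained had a median length of 202 bases (473 introns matched to RefSeq), those less retained 143 bases (263 introns), and the other introns of the same genes 104 bases (6597 introns).

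**Figure D4:**
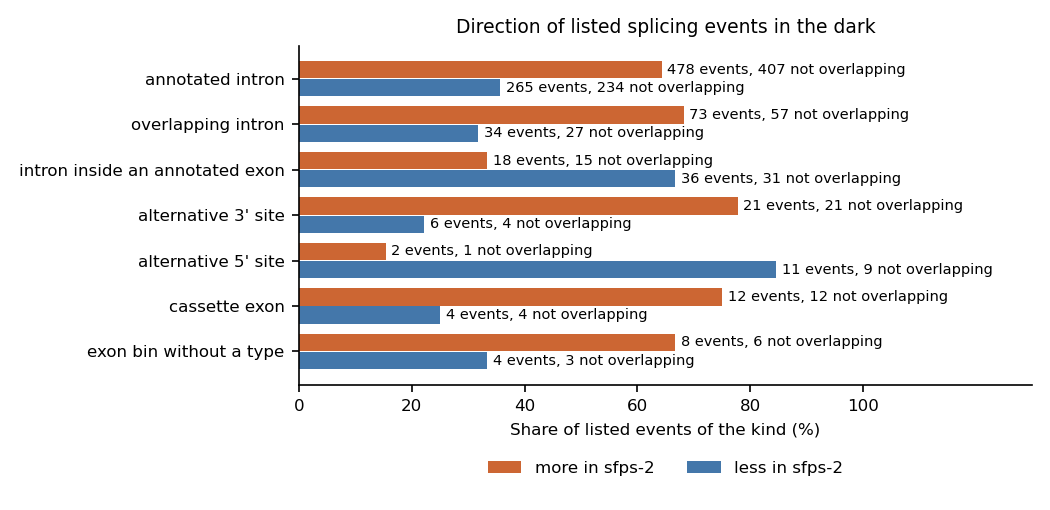
Percent of listed events of each kind that were higher (orange) or lower (blue) in sfps-2, with the number of events and the number whose groups do not overlap. Annotated introns and cassette exons lie mostly on the higher side and introns inside exons mostly on the lower.

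Cassette exons gave some of the clearest shifts, and their sequences are shown with the exon in capitals and 12 intron bases on each side (TAIR10.1, sequence from RefSeq):
XBAT35, chr3:8323087-8323182, plus strand: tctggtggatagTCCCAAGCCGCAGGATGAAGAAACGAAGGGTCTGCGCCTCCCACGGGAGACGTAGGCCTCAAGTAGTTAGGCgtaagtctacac
AT5G22608, chr5:7513606-7513653, plus strand: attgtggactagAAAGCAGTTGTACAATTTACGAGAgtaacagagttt
AMSH2, chr1:3504347-3504404, plus strand: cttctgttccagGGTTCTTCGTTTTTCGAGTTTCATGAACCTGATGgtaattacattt
DND1, chr5:5006475-5006625, minus strand: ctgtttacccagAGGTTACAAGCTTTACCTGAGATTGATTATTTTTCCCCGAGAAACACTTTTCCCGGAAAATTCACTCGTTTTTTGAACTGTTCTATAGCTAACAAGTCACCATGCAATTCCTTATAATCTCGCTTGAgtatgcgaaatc
AFC2, chr4:12756733-12756946, minus strand: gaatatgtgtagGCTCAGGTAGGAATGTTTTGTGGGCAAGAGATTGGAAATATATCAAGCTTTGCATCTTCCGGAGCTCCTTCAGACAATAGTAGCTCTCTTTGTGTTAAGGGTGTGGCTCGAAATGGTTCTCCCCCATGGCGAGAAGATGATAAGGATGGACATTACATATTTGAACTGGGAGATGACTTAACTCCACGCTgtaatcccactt
XBAT35 encodes an ankyrin-repeat ubiquitin ligase with a nuclear and a Golgi isoform. Its 72-base exon was included in 50.1%, 50.9% and 53.1% of reads in wild type and in 92.4%, 90.4% and 87.7% in sfps-2 (limma adjusted p 2.29e-04). The 24-base exon of AT5G22608 was included in 18.5%, 19.5% and 14.1% in wild type and in 60.5%, 65.1% and 55.8% in sfps-2 (limma adjusted p 3.07e-04). Both lengths are multiples of 3. The 34-base exon of AMSH2, a deubiquitinase gene, was included in 8.54%, 8.08% and 11.5% in wild type and in 29.8%, 28.6% and 19.2% in sfps-2 (limma adjusted p 0.00295). The 127-base exon of DND1, a cyclic nucleotide-gated channel gene, was included in 1.32%, 0.771% and 0% in wild type and in 21.2%, 16.4% and 13.99% in sfps-2 (limma adjusted p 0.00255). Neither of these lengths is a multiple of 3. AFC2, a kinase of SR splicing proteins, went the other way. Its 190-base exon was included in 70.6%, 69.9% and 71.0% in wild type and in 46.6%, 39.5% and 47.2% in sfps-2 (limma adjusted p 0.00118). CPSF73-I, the endonuclease of polyadenylation, included a 40-base exon in 43.5%, 26.2% and 34.7% in wild type and in 95.5%, 80.4% and 76.4% in sfps-2 (limma adjusted p 0.00464). None of the 6 exons has overlapping groups.

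Introns inside annotated exons were removed more often in sfps-2 in several regulators. Examples between the coding start and stop are shown whole, with their first and last 2 bases in capitals (TAIR10.1, sequence from RefSeq):
AT1G49180, chr1:18184821-18184942, minus strand: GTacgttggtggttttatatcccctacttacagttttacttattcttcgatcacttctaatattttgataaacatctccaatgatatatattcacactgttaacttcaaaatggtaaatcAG
QSOX1, chr1:5173268-5173440, minus strand: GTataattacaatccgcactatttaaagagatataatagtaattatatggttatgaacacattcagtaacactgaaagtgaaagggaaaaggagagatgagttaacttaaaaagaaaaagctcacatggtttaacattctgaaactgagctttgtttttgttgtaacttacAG
POB1, chr3:22797938-22798053, plus strand: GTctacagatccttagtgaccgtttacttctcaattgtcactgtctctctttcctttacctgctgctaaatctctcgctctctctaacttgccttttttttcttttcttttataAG
All 3 begin with GT and end with AG. The protein kinase gene AT1G49180 kept this stretch in 69.1%, 73.8% and 82.7% of reads in wild type and in 21.2%, 18.8% and 26.4% in sfps-2 (limma adjusted p 5.27e-04). POB1, a BTB protein gene, kept it in 64.4%, 74.6% and 63.5% in wild type and in 38.6%, 38.5% and 37.6% in sfps-2 (limma adjusted p 0.00178). QSOX1, a sulfhydryl oxidase gene, kept it in 84.4%, 96.4% and 84.3% in wild type and in 56.1%, 53.0% and 58.4% in sfps-2 (limma adjusted p 0.00599). The same direction held in GSK1, a kinase gene of brassinosteroid signalling, whose 3' untranslated stretch was kept in 65.4%, 66.3% and 66.6% in wild type and in 28.5%, 24.2% and 27% in sfps-2 (limma adjusted p 2.29e-04). It also held in CTR1, the kinase that represses ethylene signalling, at 79.9%, 75.8% and 77.4% in wild type and 47.7%, 51.1% and 56.4% in sfps-2 (limma adjusted p 0.00118). A second CTR1 event, a 357-base annotated intron, was retained more, in 8.75%, 8.70% and 12.1% in wild type and in 23.1%, 22.2% and 22.8% in sfps-2 (limma adjusted p 0.00211). In ATG13, a subunit of the kinase complex that starts autophagy, the values were 82.0%, 84.7% and 77.6% in wild type and 58.8%, 59.3% and 64.8% in sfps-2 (limma adjusted p 0.00255).

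Shifted acceptors can be read in the sequence. The segment between the acceptors is in capitals, after 20 intron bases and before 10 exon bases (TAIR10.1, sequence from RefSeq):
GSTZ1, chr2:629498-629548, plus strand: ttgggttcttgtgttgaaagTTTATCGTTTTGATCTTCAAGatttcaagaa
AT1G19330, chr1:6681491-6681535, minus strand: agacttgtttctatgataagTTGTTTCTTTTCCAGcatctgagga
HCF109, chr5:14236378-14236426, minus strand: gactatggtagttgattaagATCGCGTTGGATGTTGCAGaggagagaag
Each segment ends in AG, as does the intron before it. In GSTZ1, a glutathione transferase of tyrosine breakdown, the 21-base segment was included in 10.7%, 8.72% and 9.64% in wild type and in 58.4%, 59.7% and 65.7% in sfps-2 (limma adjusted p 8.1e-05). In AT1G19330, a histone deacetylase complex subunit gene, the 15-base segment was included in 23.1%, 34.4% and 23.9% in wild type and in 84.5%, 80.3% and 71.1% in sfps-2 (limma adjusted p 7.26e-04). In HCF109, a chloroplast peptide release factor, the 19-base segment went from 4.598%, 3.71% and 1.75% in wild type to 59.1%, 50.0% and 43.7% in sfps-2 (limma adjusted p 2.58e-04).

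**Figure D5:**
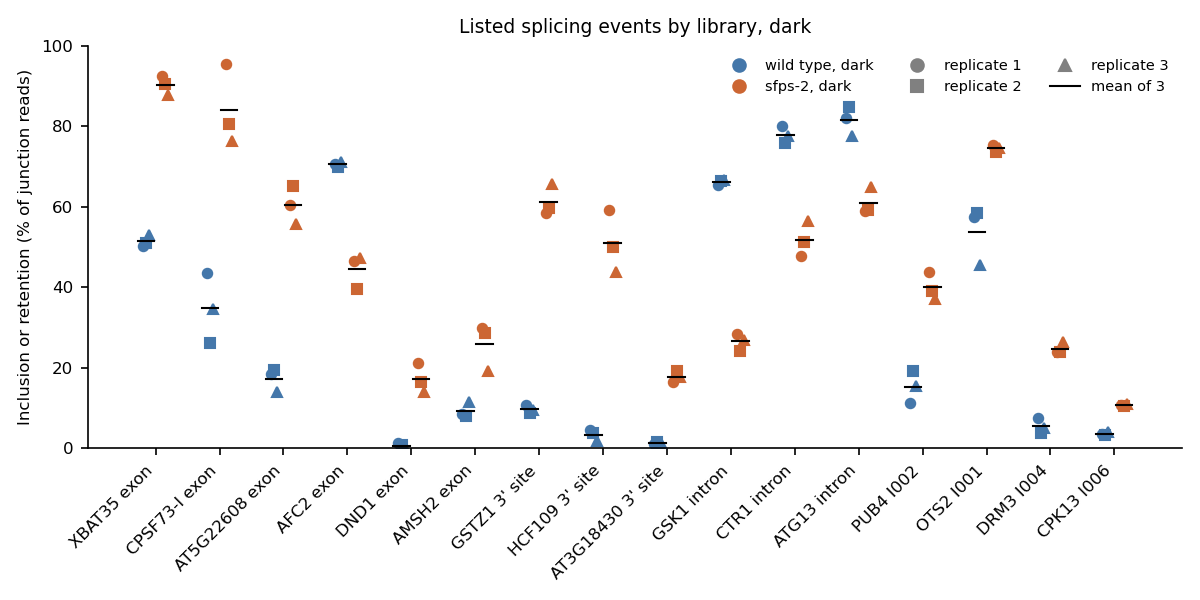
Inclusion or retention in percent of junction reads for 16 listed events, with 1 point per library, its shape giving the replicate number, and black bars at the group means. The XBAT35 exon lies near 50% in wild type and near 90% in sfps-2, and the AFC2 exon goes the opposite way.

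Signalling families also held retained introns. Calcium-dependent kinases had 4 events in 3 genes, all more retained, against 63.0% higher of all listed events. CPK13 had an intron at 3.62%, 3.37% and 4.06% in wild type and 10.7%, 10.5% and 10.9% in sfps-2 (limma adjusted p 7.26e-04). DRM3, a factor of RNA-directed DNA methylation, had an intron at 7.64%, 3.77% and 5.07% in wild type and 23.9%, 23.9% and 26.3% in sfps-2 (limma adjusted p 8.31e-04). SULTR1;2, the main sulfate uptake transporter, had an intron less retained, at 53.7%, 51.4% and 55.7% in wild type and 35.1%, 33.5% and 41.5% in sfps-2 (limma adjusted p 0.00588). AT2G17500, an auxin efflux carrier family gene, shows a 5' site where replicate 2 of each genotype differs from its own group. Its shares were 66.1%, 95.3% and 69.0% in wild type and 95.5%, 75.4% and 93.5% in sfps-2 (limma adjusted p 0.327).

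The expression of genes with a listed event was compared next. Of 777 such genes tested, 35 rose (4.5%) and 34 fell (4.38%), against 5.25% and 1.89% of the other tested genes. Over all 913 genes with junction totals, 16.1% had all sfps-2 libraries above wild type and 20.6% had them all below. AT3G56210, an armadillo-repeat gene, had 577, 482 and 573 junction reads in wild type and 112, 86.7 and 96.0 in sfps-2 (-2.47, edgeR adjusted p 6.56e-05), with a fall from 22.1 to 8.96 FPKM. AT1G61150, which encodes a LisH domain protein, had 376, 434 and 430 junction reads in wild type and 166, 155 and 141 in sfps-2 (-1.42), while its FPKM was 45.6 and 44.6. It overlaps AT1G61160 on the opposite strand, so reads of both cannot be told apart. UPF2 (AT2G39260), a core factor of nonsense-mediated decay, rose from 17.04 to 27.8 FPKM (0.70). Its junction reads were 516, 596 and 632 in wild type and 902, 831 and 843 in sfps-2 (edgeR adjusted p 0.00984). Its 3 listed introns differ in direction. A 329-base intron was retained in 8.91%, 5.06% and 8.71% in wild type and in 25.7%, 26.1% and 19.2% in sfps-2 (limma adjusted p 0.00249). A 764-base intron was retained less, in 10.9%, 11.8% and 13.2% in wild type and in 4.43%, 6.53% and 2.73% in sfps-2 (limma adjusted p 0.00606). So was a 113-base intron, in 10.3%, 8.96% and 11.9% in wild type and in 4.53%, 5.03% and 3.72% in sfps-2 (limma adjusted p 0.00274). The groups do not overlap for any of the 3. The 6 genes of the decay list, which does not hold UPF2, had 0 calls.

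Bins that the authors listed for red light in both genotypes were compared between the genotypes in darkness. Of 177 such bins, 12 are also in the authors' list for genotype in the dark. Limma called 0.585% of 171 such bins higher in sfps-2 and 0% lower, and 23 bins had an unadjusted p under 0.05. Groups did not overlap in 12.3% higher and 6.43% lower. The called bin was an intron of the pantothenate kinase gene AT2G17320, retained in 26.5%, 32.8% and 29.7% in wild type and in 59.6%, 55.6% and 57.2% in sfps-2 (limma adjusted p 0.028). It is 1 of the 12 bins listed for genotype as well. The call was lost with any 1 library left out, at 0.0775 to 0.174, and with the replicate block, at 0.172.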

How the data were processed

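RNA from 3 Col-0 and 3 sfps-2 libraries was compared, grouped by their labels. Per the submitters' processing notes, FastQC, TopHat2, Cufflinks and TAIR10 were used, and the series' design text adds ASpli; no versions are given. The authors deposited FPKM as 1 value per group with p-value and q-value columns, with a lowest q of 0.00116. For listed events the authors deposited counts of junction reads in each library, with the fraction of reads that include each bin. Total depth per library is not given.

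Log2 changes were computed here from FPKM. A gene was called at q under 0.05 and 1.5-fold. Shares were recomputed from the counts, and log2 odds with 0.5 reads added were tested with limma 3.58.1 where every library had at least 10 reads. Junction reads were summed per gene over its listed events, without overlapping introns. These events were listed for genotype in the dark or for light in both genotypes. The sums were TMM-scaled and tested with edgeR 4.0.16 (quasi-likelihood). Both limma and edgeR were run in R 4.3.3 with Benjamini-Hochberg adjustment over all features fitted. DESeq2 1.42.0 was an alternative. Two-sided exact tests of 3 against 3 cannot go below 0.1. On simulated data, 190 of 200 genes changed 2-fold in junction totals were recovered among 909 genes, and 157 of 200 events changed by 1.5 in log2 odds among 947. Each simulation also gave 7 false calls. The simulated spread was the same for all features and no library stood apart, unlike sfps-2 replicate 2, so recovery in the real data may be lower.

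Replicate numbers correlated in junction totals between the genotypes (0.208, 0.219 and 0.186), so the replicate block is given there where it changes a call. They did not in listed events (0.013, -0.094 and 0.004).

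Members and gene lists were chosen with earlier results of these data known, and the flowering, SUMO protease, major latex protein-like and HXXXD lists were added after values were seen. Named genes are the largest changes, up to 4 called members per list and direction, the most abundant called genes, and the largest listed events per kind. Other genes were named as examples after their values were seen. Alternatives were thresholds, pseudocounts, scaling, filters, the block and leaving out libraries.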

Additional observations from a re-analysis of the deposited data

How the results depend on the processing

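Expression was available as group values only, so no library could be left out there. Calls counted as higher were 601 at 2-fold, and calls counted as lower were 678 by q alone and 129 at 2-fold, against 1080 and 411. Over all gene lists, 209 genes were higher at 1 FPKM or more in each genotype and 179 lower by q alone, against 318 and 108. Of listed events, 207 and 161 changed by at least 10 points up and down. Leaving out each library in turn gave 22 to 92 genes higher and 52 to 106 lower in junction totals, against 56 and 97, and 0 to 1 light-listed bins higher, against 1. The 1 was AT1G06560, called without wild type replicate 3, and not AT2G17320. With the replicate block, which pairs libraries of the same number, 96 genes were higher and 126 lower in junction totals, and 0 light-listed bins were higher. In listed events the block kept 704 of 787 calls, and the 2 FLC clade introns at limma adjusted p 0.0343 and 0.0431 went to 0.0544. With both libraries numbered 2 left out, chosen after seeing the data, junction totals gave 115 higher, light-listed bins gave 0, and the log2 change of IRT1 reversed to -3.37 (edgeR adjusted p 0.0359). With a pseudocount of 1 read, 2 light-listed bins were higher. Junction totals of the genes of light-listed bins alone gave 0 higher and 2 lower. The causes were not tested. All 153 junction calls kept their direction under DESeq2, library totals, the block and each left-out library, and 73 to 134 stayed called with 1 library left out. Events below the authors' listing thresholds were not analysed here, and depth limits introns with few junction reads.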
